A study of Mus musculus with 12 samples.

Results

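The 10 genes described here encode proteins of the vessel wall and of the adhesion of blood cells to it, and were taken by exact match of their names to the gene table, in which they are 10 of 55487 genes. They are *Cldn5*, *Pecam1* and *Cdh5*, which join endothelial cells to each other, the receptor tyrosine kinases *Kdr*, *Flt1* and *Tek*, the ligand *Vegfa*, the fenestral diaphragm gene *Plvap*, and the leukocyte adhesion genes *Icam1* and *Vcam1*. They were followed in RNA-seq of 12 libraries of mouse retina, 2 in each of 6 groups. WT retinas came from C57BL/6J mice, shPax6 retinas had received 2 μL of an AAV2.7m8 vector in which a U6 promoter drives an shRNA against Pax6 beside GFP, and JNK3-KO retinas came from Jnk3-/- mice, which lack the kinase encoded by *Mapk10*. Eyes of each genotype were injected into the vitreous with 1 μL of PBS or with 1 μL of 40 mM NMDA, that is 40 nmol of a glutamate receptor agonist that kills retinal ganglion cells by excitotoxicity. Every library was made from poly(A) RNA of several pooled retinas, and the labels do not say whether the 2 libraries of a group came from separate animals, so p-values measure the spread between these libraries, which may be technical. No library of retinas with the shScramble vector is among the 12, so infection and knockdown cannot be told apart in the shPax6 groups. Mice were 2 months old when the shPax6 vector was delivered. The age of the other mice used for RNA-seq is not given in the sources used here.

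The inner retina of the mouse is fed by vessels whose endothelial cells are sealed by tight junctions, of which claudin 5 is a main component, and by adherens junctions built on VE-cadherin, the product of *Cdh5*. VEGF-A is secreted by Müller glia, astrocytes and other retinal cells, acts on endothelial cells through VEGFR2 (*Kdr*), and is sequestered by VEGFR1 (*Flt1*) and its soluble form. It drives vessel growth and raises permeability, and PLVAP, which forms the diaphragms of fenestrae, is low in a mature blood-retina barrier. Inflammatory cytokines induce ICAM-1 and VCAM-1, which bind integrins on leukocytes. Neither the ligand nor these receptors are confined to vessels, since retinal neurons also express *Kdr*, and glia express *Vcam1*.

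Positions are those of GRCm38, and the genes differ in spliced length, which bears on the WT results below. *Cldn5* (chr16:18776847-18778262, plus strand) is a gene of 1 exon and 1416 bases. *Vegfa* (chr17:46016993-46032369, minus strand), *Plvap* (chr8:71497765-71511752, minus strand) and *Icam1* (chr9:21015985-21028817, plus strand) have 2040, 1987 and 2524 bases. *Pecam1* (chr11:106654217-106750628, minus strand) has 3045, *Vcam1* (chr3:116109949-116129688, minus strand) 3181, *Cdh5* (chr8:104101625-104144511, plus strand) 3995 and *Tek* (chr4:94739289-94874976, plus strand) 4430 bases. *Kdr* (chr5:75932827-75978458, minus strand) and *Flt1* (chr5:147561604-147726011, minus strand) are the longest, with 5911 and 6757 bases. The length is the mean over a gene's transcripts, weighted by FPKM. *Cdh5*, *Plvap*, *Icam1* and *Vcam1* each overlap a gene on the opposite strand, and since no source used here says that strand was used in counting, reads of such a pair cannot be told apart. The partners of *Cdh5* and *Vcam1* were listed at 0 in every library and that of *Icam1* at no more than 0.13 FPKM. The partner of *Plvap*, *Gtpbp3*, was listed between 8.79 and 17.96 FPKM, above *Plvap* in every library.

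Values are FPKM, that is sequenced fragments scaled by transcript length and by library size, and the read depth behind them is unknown. Differences were tested on log2(FPKM + 0.1) with limma in 1 model of the 6 groups over the 16471 genes with a mean above 1 FPKM in at least 1 group, and a gene was called at an adjusted p under 0.05. All 10 genes passed this filter, but *Tek* passed it only through the JNK3-KO NMDA group and *Cdh5* through 3 of the 6 groups, at means of at most 1.5 FPKM. For *Cdh5* these were the WT PBS, shPax6 NMDA and JNK3-KO NMDA groups. The WT NMDA libraries stood apart from the rest. Their summed FPKM were 805627 and 820180, against 541210 to 576922 in the other 10, and their change from PBS followed gene length, with a Spearman's rho of -0.565 over 16452 genes, against -0.173 in shPax6 and 0.229 in JNK3-KO retinas. In WT retinas genes under 2 kb had a median log2 fold change of 0.62, those of 2 to 4 kb one of -0.32 and longer genes one of -1.17. Results in WT retinas are therefore also given after each library's trend on length was removed (length-corrected) and on TPM, where a call, a direction or a count changes. The cause of the trend was not tested. On TPM the median of all genes moved from -0.09 to -0.66 in WT retinas, from 0.28 to 0.80 in the difference of shPax6 from WT responses and from 0.03 to 0.62 in that of JNK3-KO from WT responses. Of the checks on the labels, *Pax6* had values of 173.48 and 177.3 FPKM in WT PBS against 94.56 and 92.84 FPKM in shPax6 PBS libraries, and *Mapk10* of 42.79 and 50.72 FPKM in WT PBS against 9.47 and 8.75 FPKM in JNK3-KO PBS libraries. After NMDA neither gene was lower in both libraries of the targeted group than in both WT libraries, with *Pax6* at 55.42 and 53.81 FPKM in WT against 67.52 and 58.73 FPKM in shPax6 libraries. *Mapk10* was at 8.98 and 6 FPKM in WT against 6.65 and 13.77 FPKM in JNK3-KO libraries. The genotype labels of the NMDA groups were used as given. In bulk retina, fewer cells of a type and less RNA per cell cannot be told apart.

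The 10 genes differed widely in level, as the plot of FPKM by library shows. *Vegfa* was listed between 26.37 and 150.01 FPKM and *Kdr* between 12.3 and 57.58 FPKM, far above the endothelial genes *Pecam1* (1.71 to 4.71 FPKM) and *Cdh5* (0.4 to 1.54 FPKM). FPKM are per length, so levels can be set side by side between genes, but less so in the WT NMDA libraries, whose changes followed length. The lowest values of *Vegfa* and *Kdr* are from those libraries.

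**Figure D1:**
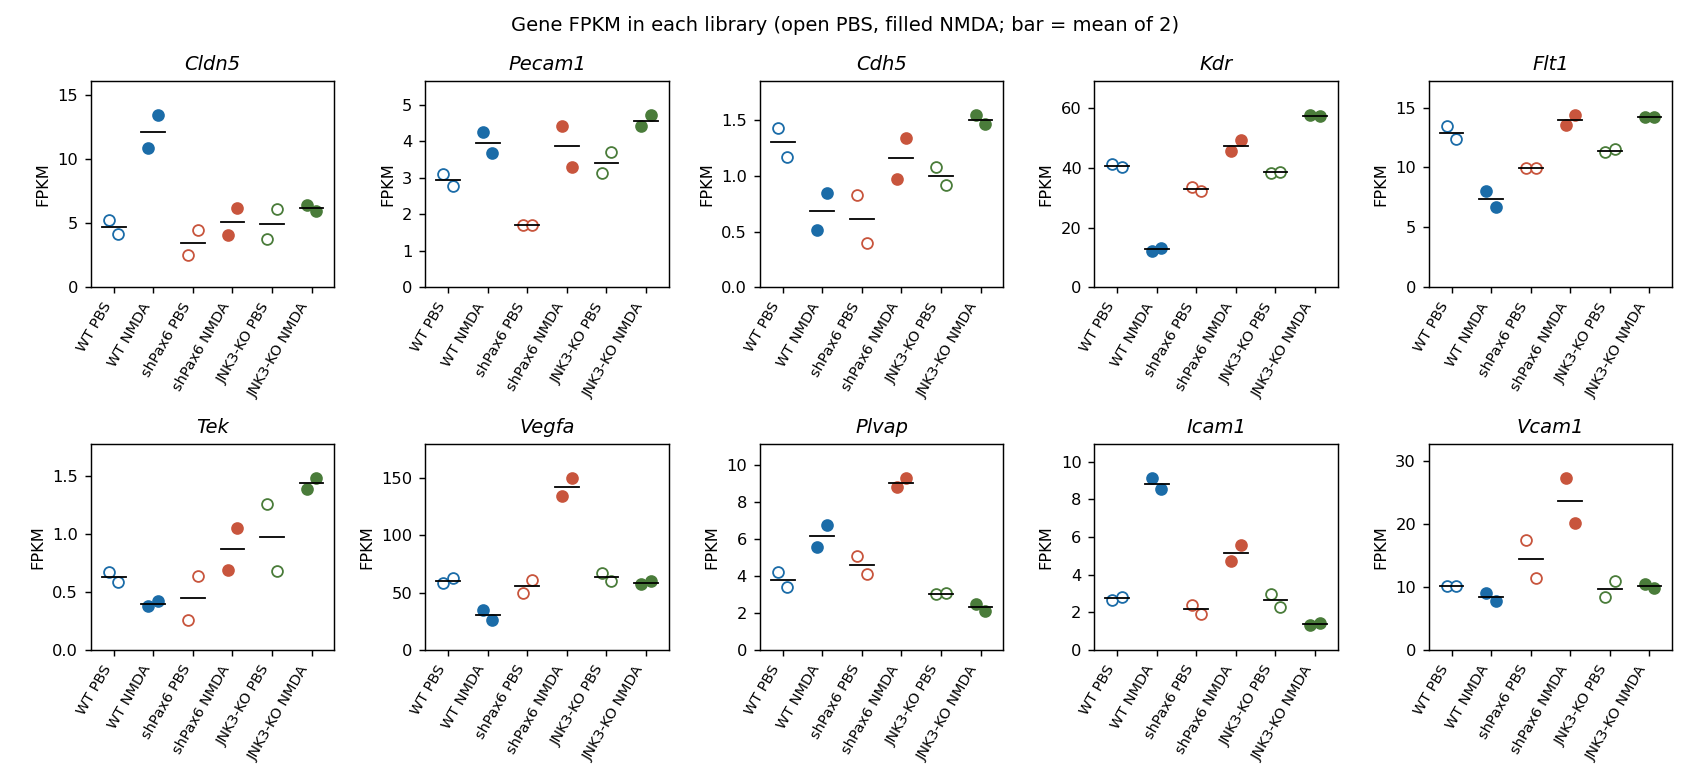
FPKM (vertical axis, linear from 0) of the 10 genes in each of the 12 libraries, by group, with open points for PBS, filled points for NMDA and a bar at the mean of 2 libraries. *Kdr* was lowest in WT NMDA retinas at 12.3 and 13.29 FPKM, *Vegfa* was highest in shPax6 NMDA retinas at 134.66 and 150.01 FPKM, and *Icam1* was highest in WT NMDA and lowest in JNK3-KO NMDA retinas.

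After NMDA the genes moved differently in each genotype. In WT retinas *Cldn5*, *Plvap* and *Icam1* rose and *Kdr*, *Flt1* and *Vegfa* fell, which is 3 of 10 up, where 26.0% of all genes tested were up, and 3 of 10 down, where 33.8% were down. The split was 4 up and 2 down once length-corrected, where 3920 of 16452 genes tested were up and 3638 down. On TPM it was 1 up and 5 down, where 2247 of 16471 genes were up and 8270 down. In shPax6 retinas 7 of 10 rose (19.1% of all genes), *Pecam1*, *Kdr*, *Flt1*, *Vegfa*, *Plvap*, *Icam1* and *Vcam1*, and 0 fell at the adjusted threshold or at an unadjusted p under 0.05 by limma, the one test run (11.0% of all genes). In JNK3-KO retinas *Kdr* rose (4.33% of all genes were up) and *Icam1* fell (6.10% were down). The medians over the 10 genes were -0.41, 0.87 and 0.34 on the log2 scale, beside -0.09, 0.10 and -0.01 over all genes tested. The libraries of PBS and NMDA did not overlap for 10 genes in WT, 9 in shPax6 and 7 in JNK3-KO retinas. The same held for 81.2%, 57.0% and 61.5% of all genes tested. These 10 genes were chosen with results of these libraries known, so no test was made over them as a set.

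**Figure D2:**
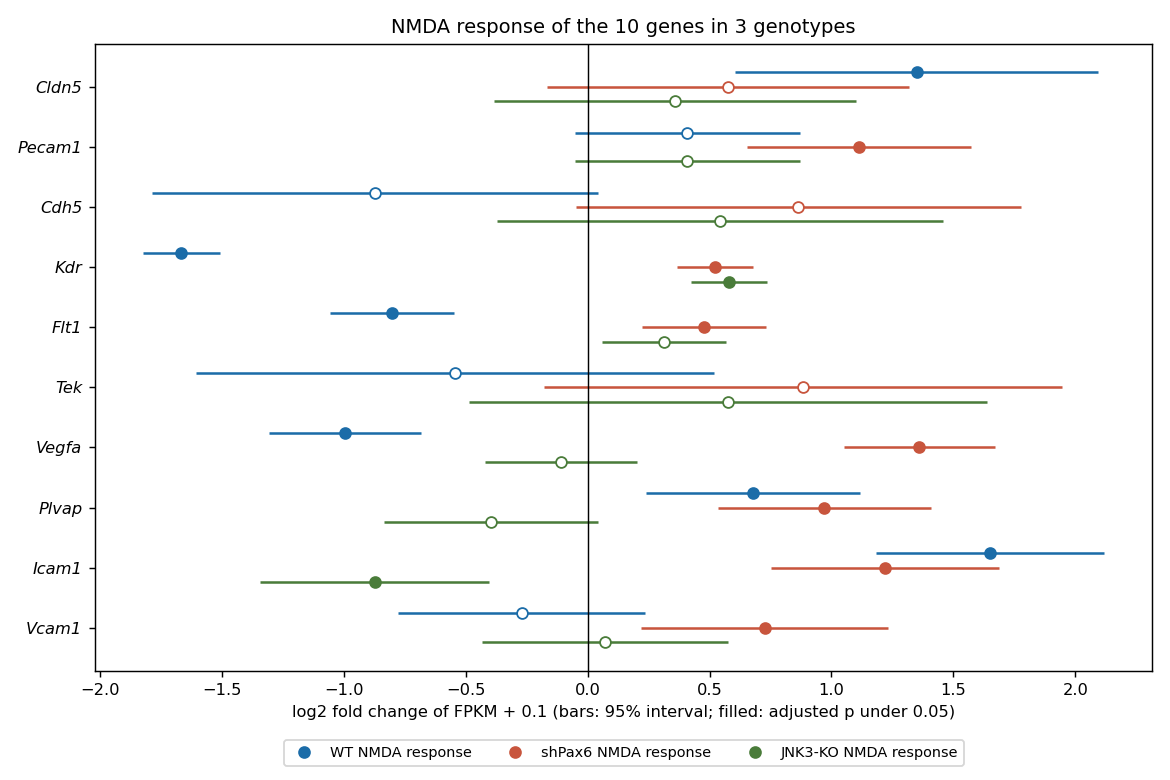
Log2 fold change after NMDA (horizontal axis, on FPKM + 0.1) of each of the 10 genes in WT, shPax6 and JNK3-KO retinas, with 95% intervals from limma and filled points for an adjusted p under 0.05. *Kdr*, *Flt1* and *Vegfa* lay below 0 in WT retinas, at -1.67, -0.80 and -0.996, and above 0 in shPax6 retinas, at 0.52, 0.48 and 1.36. After removal of the length trend *Flt1* lay above 0 in WT retinas as well, at 0.55.

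Of the junction genes, *Cldn5*, the tight junction claudin of brain and retinal endothelium, rose in WT retinas. It was listed at 5.25 and 4.18 FPKM under PBS and 10.89 and 13.44 FPKM after NMDA. The groups did not overlap, and the log2 fold change was 1.35 (SE 0.33, limma adjusted p = 0.00592). The length-corrected value was 0.77 (limma adjusted p = 0.0913) and that on TPM 0.79 (limma adjusted p = 0.0688), so the call did not hold on either, and it was also lost without WT PBS replicate 2, at 1.19 (limma adjusted p = 0.0502). In shPax6 retinas *Cldn5* was listed at 2.51 and 4.47 FPKM under PBS and 4.11 and 6.19 FPKM after NMDA, and in JNK3-KO retinas at 3.78 and 6.15 FPKM and at 6.43 and 6 FPKM. In both, the PBS and NMDA libraries overlapped, and WT NMDA was the one group that lay apart from the others in level. The differences of the shPax6 and JNK3-KO responses from that of WT retinas were -0.77 (95% interval -1.83 to 0.28) and -0.99 (95% interval -2.04 to 0.06), and neither passed the test.

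*Pecam1*, an adhesion molecule of endothelial cells, platelets and leukocytes, rose in shPax6 retinas from 1.71 and 1.72 FPKM under PBS to 4.42 and 3.31 FPKM after NMDA (log2 fold change 1.11, SE 0.20, limma adjusted p = 0.00327). With the spread of the shPax6 libraries alone this call was lost, as were those of *Kdr*, *Flt1*, *Plvap*, *Icam1* and *Vcam1* in shPax6 retinas given below, while that of *Vegfa* was kept. The limma adjusted p were then 0.136 for *Pecam1*, 0.0534 for *Kdr*, 0.11 for *Flt1*, 0.0989 for *Plvap*, 0.107 for *Icam1* and 0.245 for *Vcam1*. The shPax6 PBS libraries of *Pecam1* were the lowest of the 12. It was listed at 3.12 and 2.79 FPKM in WT PBS against 4.25 and 3.67 FPKM in WT NMDA, a log2 fold change of 0.41 (limma adjusted p = 0.114) that passed the test once length-corrected, at 0.84 (limma adjusted p = 0.00768), and had the other sign on TPM, at -0.15 (limma adjusted p = 0.571). JNK3-KO retinas had 3.13 and 3.71 FPKM under PBS and 4.41 and 4.71 FPKM after NMDA, also 0.41 (limma adjusted p = 0.266). *Cdh5*, the adherens junction cadherin of endothelium, was near the filter and was not called in any genotype on the deposited scale. It was listed at 1.43 and 1.17 FPKM in WT PBS against 0.51 and 0.85 FPKM in WT NMDA, at 0.83 and 0.4 FPKM and then 0.97 and 1.34 FPKM in shPax6, and at 1.08 and 0.92 FPKM and then 1.54 and 1.46 FPKM in JNK3-KO retinas. The log2 fold changes were -0.87 (95% interval -1.79 to 0.04), 0.86 (95% interval -0.05 to 1.78) and 0.54 (95% interval -0.37 to 1.46), and the length-corrected value in WT retinas was -0.08. In WT retinas *Cdh5* was called lower on TPM, at -1.44 (limma adjusted p = 0.0138), and at an unchanged -0.87 without shPax6 PBS replicate 1 (limma adjusted p = 0.0481) or replicate 2 (limma adjusted p = 0.0457). In shPax6 retinas it was called higher without shPax6 PBS replicate 1, at 1.31 (limma adjusted p = 0.0498).

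Of the receptors, *Kdr*, which encodes VEGFR2, the main signaling receptor for VEGF-A, had the largest fall of the 10 in WT retinas, from 41.22 and 40.38 FPKM under PBS to 12.3 and 13.29 FPKM after NMDA. The log2 fold change was -1.67 (SE 0.07, limma adjusted p = 1.31e-07), and -0.44 once length-corrected (limma adjusted p = 0.000785). In shPax6 retinas it rose from 33.69 and 32.23 FPKM to 45.66 and 49.21 FPKM (0.52, SE 0.07, limma adjusted p = 0.000553). In JNK3-KO retinas it rose from 38.45 and 38.52 FPKM to 57.58 and 57.5 FPKM (0.58, SE 0.07, limma adjusted p = 0.00127). No neighbouring groups overlapped in the order of levels, which ran from JNK3-KO NMDA over shPax6 NMDA, WT PBS, JNK3-KO PBS and shPax6 PBS to WT NMDA. The calls were repeated under 11 other settings and with each of the 12 libraries left out, and held in 23 of 23, 22 of 23 and 23 of 23 of these alternatives for WT, shPax6 and JNK3-KO retinas, the exception being the spread of the shPax6 libraries alone. These 23 keep the adjusted threshold. Not among them are the limits of the study's volcano plots, an unadjusted p under 0.05 with an absolute log2 fold change above 1. Applied to limma p-values, these limits, below called the study's thresholds, kept only the WT call of *Kdr*. The study also limited the variance-mean ratio, which was not done here. For its comparison of all genotypes it stated an FPKM above 1 in at least 1 group and p under 0.05, with no fold limit. The *Kdr* call in each genotype meets that rule by limma.

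*Flt1*, which encodes VEGFR1, a decoy for VEGF-A, fell in WT retinas from 13.44 and 12.38 FPKM to 8.06 and 6.71 FPKM (log2 fold change -0.80, SE 0.11, limma adjusted p = 0.000213), which turned to a rise of 0.55 once length-corrected (limma adjusted p = 0.00389). *Flt1* is the longest of the 10 genes. In shPax6 retinas it rose from 9.96 and 9.99 FPKM to 13.53 and 14.34 FPKM (0.48, SE 0.11, limma adjusted p = 0.0115). In JNK3-KO retinas the values were 11.28 and 11.51 FPKM under PBS and 14.21 and 14.19 FPKM after NMDA, which did not overlap but did not pass the test (0.32, limma adjusted p = 0.118). *Tek*, the angiopoietin receptor TIE2, was among the lowest of the 10, between 0.26 and 1.48 FPKM, and was not called in any genotype. Its highest values were those of JNK3-KO NMDA retinas, 1.39 and 1.48 FPKM, and its lowest mean that of WT NMDA retinas, 0.38 and 0.42 FPKM, where the 95% interval of the log2 fold change ran from -1.61 to 0.52. The WT value of -0.55 had the other sign once length-corrected, at 0.38 (limma adjusted p = 0.551), and passed the test with the spread of the WT libraries alone (limma adjusted p = 0.0376).

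*Vegfa*, the ligand of both VEGF receptors, moved in opposite directions in WT and shPax6 retinas. It fell in WT retinas from 58.71 and 62.51 FPKM under PBS to 34.85 and 26.37 FPKM after NMDA (log2 fold change -0.996, SE 0.14, limma adjusted p = 0.000193), and rose in shPax6 retinas from 50.25 and 60.79 FPKM to 134.66 and 150.01 FPKM (1.36, SE 0.14, limma adjusted p = 0.000115). In JNK3-KO retinas the values overlapped, at 67.05 and 60.02 FPKM under PBS and 57.53 and 60.08 FPKM after NMDA (-0.11, 95% interval -0.42 to 0.20). Both calls held in 23 of 23 alternatives, with values from -1.57 to -0.80 in WT and from 1.19 to 1.498 in shPax6 retinas, and the length-corrected value in WT retinas was -1.10. The study's thresholds for its volcano plots, outside the 23, kept the shPax6 call only. The 3 PBS groups and the JNK3-KO NMDA group did not separate from their neighbours in level.

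The gene value of *Vegfa* is a sum over transcripts that did not move together. Transcript values are estimates that divide shared reads and are given without a test. Of the 10 *Vegfa* transcripts listed, 8 had a group mean above 1 FPKM. Vegfa-201, which encodes 146 residues, was listed at 7.67 and 10.01 FPKM in WT PBS against 19.63 and 16.55 FPKM in WT NMDA. Vegfa-202, which encodes 368 residues, was listed at 23.63 and 18.16 FPKM in WT PBS against 3.66 and 5.43 FPKM in WT NMDA, so that the order of the pair was reversed. Vegfa-201 made up 24.5% and 35.5% of the pair in WT PBS, 84.3% and 75.3% in WT NMDA, and 15.4% to 38.4% in the other 8 libraries. In shPax6 NMDA retinas Vegfa-202 was listed at 47.46 and 60.05 FPKM, against 20.9 and 21.96 FPKM under PBS. The 5 transcripts annotated as retaining an intron summed to 25.85 and 31.7 FPKM in WT PBS, 11.35 and 4.4 FPKM in WT NMDA, 21.88 and 30.75 FPKM in shPax6 PBS and 65.22 and 78.7 FPKM in shPax6 NMDA libraries, which was 32.6% and 16.7% of the gene in WT NMDA and 43.5% to 52.5% in the other 10 libraries. Vegfa-202 is the longer of the pair, with 3451 bases against 2765.

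**Figure D3:**
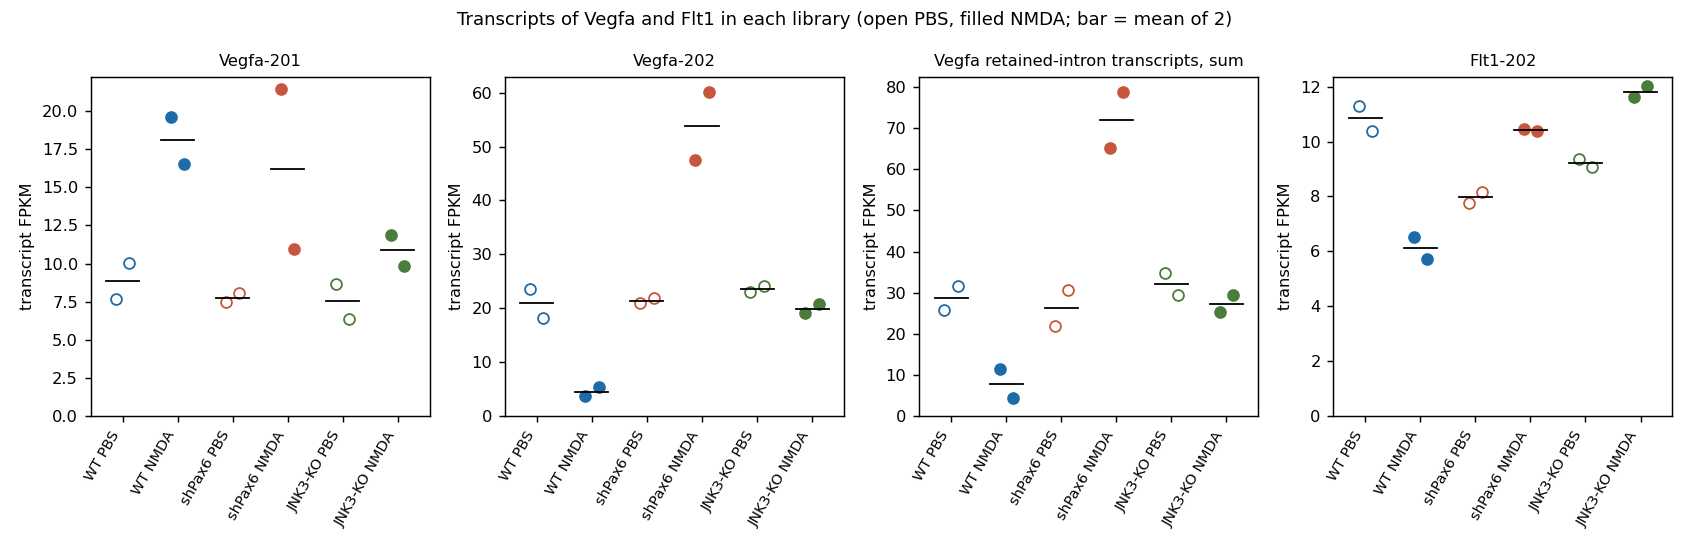
Transcript FPKM (vertical axes, linear from 0) of Vegfa-201, of Vegfa-202, of the sum of 5 intron-retaining *Vegfa* transcripts and of Flt1-202 in the 12 libraries, with open points for PBS, filled points for NMDA and a bar at the mean of 2. Vegfa-201 was higher and Vegfa-202 lower in WT NMDA than in WT PBS libraries, and Vegfa-202 and the intron-retaining sum were highest in shPax6 NMDA libraries.

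For *Flt1*, 2 transcripts passed 1 FPKM. Flt1-202 encodes the receptor of 1333 residues and Flt1-203 a shorter form of 688 residues. Flt1-203 made up 15.6% and 16.3% of the pair in WT PBS and 19.0% and 14.9% in WT NMDA, and 19.3% and 18.1% in shPax6 PBS against 22.7% and 26.2% in shPax6 NMDA libraries. Its own level was 1.86 and 1.81 FPKM in shPax6 PBS and 3.07 and 3.69 FPKM in shPax6 NMDA libraries. *Cldn5*, *Cdh5*, *Kdr*, *Plvap* and *Icam1* each had 1 transcript above 1 FPKM, *Tek* had 0, and *Pecam1* and *Vcam1* had 3 each.

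*Plvap*, the component of fenestral diaphragms, rose in WT retinas from 4.22 and 3.41 FPKM to 5.56 and 6.76 FPKM (log2 fold change 0.68, SE 0.19, limma adjusted p = 0.0133) and in shPax6 retinas from 5.11 and 4.09 FPKM to 8.82 and 9.3 FPKM (0.97, SE 0.19, limma adjusted p = 0.00515). On TPM the WT value was 0.12 (limma adjusted p = 0.638), and the WT call was also lost without WT PBS replicate 2, at 0.53, without WT NMDA replicate 2, at 0.54, and with the spread of the WT libraries alone (limma adjusted p = 0.0658). JNK3-KO retinas had 3.04 and 3.08 FPKM under PBS and 2.52 and 2.1 FPKM after NMDA, the lowest 2 values of the 12 libraries, with a log2 fold change of -0.40 (limma adjusted p = 0.257). The opposite-strand partner *Gtpbp3* was also higher in WT NMDA, at 14.53 and 12.39 FPKM, than in WT PBS libraries, at 8.79 and 9.08 FPKM. It went from 17.96 and 10.77 to 13.59 and 15.9 FPKM in shPax6, and from 10.41 and 8.94 to 11.27 and 12.96 FPKM in JNK3-KO retinas. The part of its reads in the values of *Plvap* was not tested.

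*Icam1*, the endothelial ligand of the leukocyte integrins LFA-1 and MAC-1, rose in WT and shPax6 and fell in JNK3-KO retinas. In WT retinas it rose from 2.66 and 2.83 FPKM to 9.12 and 8.55 FPKM (log2 fold change 1.65, SE 0.21, limma adjusted p = 0.000104), a call held in 23 of 23 alternatives with values from 1.10 to 2.02. In shPax6 retinas it rose from 2.38 and 1.94 FPKM to 4.71 and 5.6 FPKM (1.22, SE 0.21, limma adjusted p = 0.00219). In JNK3-KO retinas it fell from 2.99 and 2.29 FPKM to 1.32 and 1.45 FPKM (-0.87, SE 0.21, limma adjusted p = 0.0291). Each PBS group overlapped a neighbouring PBS group in level and the 3 NMDA groups were all apart. The fall in JNK3-KO retinas is less firm, since its call held in 14 of 23 alternatives, with values from -1.06 to -0.60, and was lost when any one of the JNK3-KO libraries was left out, where the value ran from -1.06 to -0.69, without WT PBS replicate 1 or 2, and with no filter, quantile scaling or the spread of the JNK3-KO libraries alone.

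Promoter windows of 250 bases before the start were read from RefSeq sequences (GRCm38.p6), which held 6 of the 10 genes. Of these the window of *Icam1* alone held both motifs searched on both strands, GGAATTTCC, a form of the site bound by NF-κB, and TTCCNGGAA, a form of the site bound by STAT factors, and no other window of the 6 genes held either. The motifs begin 153 and 42 bases before the RefSeq start, and of 32851 such windows 0.286% hold the first and 0.913% the second. The motifs were chosen after the values of *Icam1* were known. The window is shown because it alone held both motifs and *Icam1*, like *Kdr*, was called in opposite directions in WT and JNK3-KO retinas, with motif matches in capitals (the first read on the opposite strand), at chr9:21015690-21015939 on the plus strand.
Icam1 promoter: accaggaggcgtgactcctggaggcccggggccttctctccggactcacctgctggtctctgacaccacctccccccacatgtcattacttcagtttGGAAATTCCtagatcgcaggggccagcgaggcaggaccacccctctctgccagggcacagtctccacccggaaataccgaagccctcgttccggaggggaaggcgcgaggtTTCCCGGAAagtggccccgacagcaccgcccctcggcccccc

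*Vcam1*, the ligand of the integrin VLA-4, was highest in shPax6 retinas, at 17.48 and 11.45 FPKM under PBS and 27.3 and 20.17 FPKM after NMDA (log2 fold change 0.73, SE 0.22, limma adjusted p = 0.0367). This call was the weakest of the 7 in shPax6 retinas, held in 8 of 23 alternatives, and the value was 0.42 without shPax6 PBS replicate 2 and 0.51 without shPax6 NMDA replicate 1. In WT retinas it was listed at 10.12 and 10.24 FPKM under PBS and 9.07 and 7.82 FPKM after NMDA (-0.27, limma adjusted p = 0.327), and in JNK3-KO retinas at 8.4 and 11.03 FPKM and at 10.46 and 9.8 FPKM, which overlapped. On TPM, *Vcam1* was lower after NMDA in WT retinas, at -0.84 (limma adjusted p = 0.00924), and once length-corrected the WT value had the other sign, at 0.22 (limma adjusted p = 0.454).

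Under PBS, 2 of the 10 genes were called between shPax6 and WT retinas and 0 between JNK3-KO and WT retinas. Between shPax6 and WT retinas 0 of 10 genes were higher (5.36% of all genes tested) and 2 were lower (11.2%), *Kdr* at -0.31 (SE 0.07, limma adjusted p = 0.0167) and *Pecam1* at -0.75 (SE 0.20, limma adjusted p = 0.0361). A further 2, *Cdh5* at -1.03 and *Flt1* at -0.37, had an unadjusted limma p under 0.05. Both calls were lost with the length correction, at -0.21 and -0.66, with the spread of the compared libraries alone, and without WT PBS replicate 1, WT PBS replicate 2 or shPax6 PBS replicate 2. That of *Pecam1* was also lost with no filter, quantile scaling or the replicate block, and without shPax6 PBS replicate 1, JNK3-KO PBS replicate 2 or either JNK3-KO NMDA library. Between JNK3-KO and WT retinas 0 of 10 genes were higher (1.10% of all genes) and 0 lower (0.407%) by limma, and 0 had an unadjusted p under 0.05, with log2 differences from -0.35 in *Cdh5* to 0.50 in *Tek*. The 95% intervals of the difference ran from -0.56 to 1.56 for *Tek*, a low gene, and from -0.24 to 0.07 for *Kdr*.

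The difference between the responses was tested itself. The comparisons share the WT PBS and WT NMDA libraries, so they are not independent of each other. Relative to WT, the shPax6 response was higher for 5 of 10 genes (31.4% of all genes tested) and lower for 0 (18.3%, and 0 with an unadjusted limma p under 0.05). It was higher by 2.36 for *Vegfa* (SE 0.19, limma adjusted p = 2.07e-05), 2.19 for *Kdr* (SE 0.10, limma adjusted p = 1.23e-06), 1.74 for *Cdh5* (SE 0.57, limma adjusted p = 0.0312), 1.28 for *Flt1* (SE 0.16, limma adjusted p = 0.000199) and 1.00 for *Vcam1* (SE 0.32, limma adjusted p = 0.0268). The length correction left 2.29 for *Vegfa* and 1.03 for *Kdr* as called, and 0.91 for *Cdh5*, 0.02 for *Flt1* and 0.41 for *Vcam1* below the threshold, whereas TPM added *Pecam1*, *Plvap* and *Tek*, at 1.23, 0.81 and 1.99. Over all genes tested, 2766 of 16452 were higher and 3187 lower once length-corrected, and 7771 and 1516 of 16471 on TPM. *Cdh5* and *Vcam1* were also lost without WT PBS replicate 1, WT PBS replicate 2 or shPax6 PBS replicate 2, with values of 1.60, 1.87 and 1.29 for *Cdh5* and of 1.00, 0.99 and 0.69 for *Vcam1*, and with quantile scaling or the spread of the compared libraries alone. *Cdh5* was lost as well with no filter, without WT NMDA replicate 1, at 1.42, and without shPax6 NMDA replicate 2, at 1.52. *Vcam1* was lost without WT NMDA replicate 2, at 0.89, and without shPax6 NMDA replicate 1, at 0.78.

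The JNK3-KO response, relative to WT, was higher for 3 of 10 genes (27.9% of all genes tested) and lower for 2 (23.5%). It was higher by 2.25 for *Kdr* (SE 0.10, limma adjusted p = 5.33e-07), 1.12 for *Flt1* (SE 0.16, limma adjusted p = 0.000329) and 0.89 for *Vegfa* (SE 0.19, limma adjusted p = 0.00416). The difference was -2.52 for *Icam1* (SE 0.29, limma adjusted p = 9.41e-05) and -1.07 for *Plvap* (SE 0.27, limma adjusted p = 0.00911). After the length correction *Kdr*, *Vegfa*, *Icam1* and *Plvap* kept their call, at 0.83, 1.04, -2.70 and -0.88, and *Flt1* turned to -0.46 (limma adjusted p = 0.0585). On TPM *Plvap* lost its call, at -0.50 (limma adjusted p = 0.163), and *Vcam1* and *Cdh5* gained one, at 0.93 and 2.02. *Cdh5*, at 1.42 on the deposited scale (limma adjusted p = 0.0653), was also called with the spread of the compared libraries alone or no trend. The same held without WT NMDA replicate 2, at 1.74, or either shPax6 PBS library, at 1.42. Among the groups compared, *Cdh5* passed the filter only through WT PBS and JNK3-KO NMDA, so these calls are tied to the filter.

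**Figure D4:**
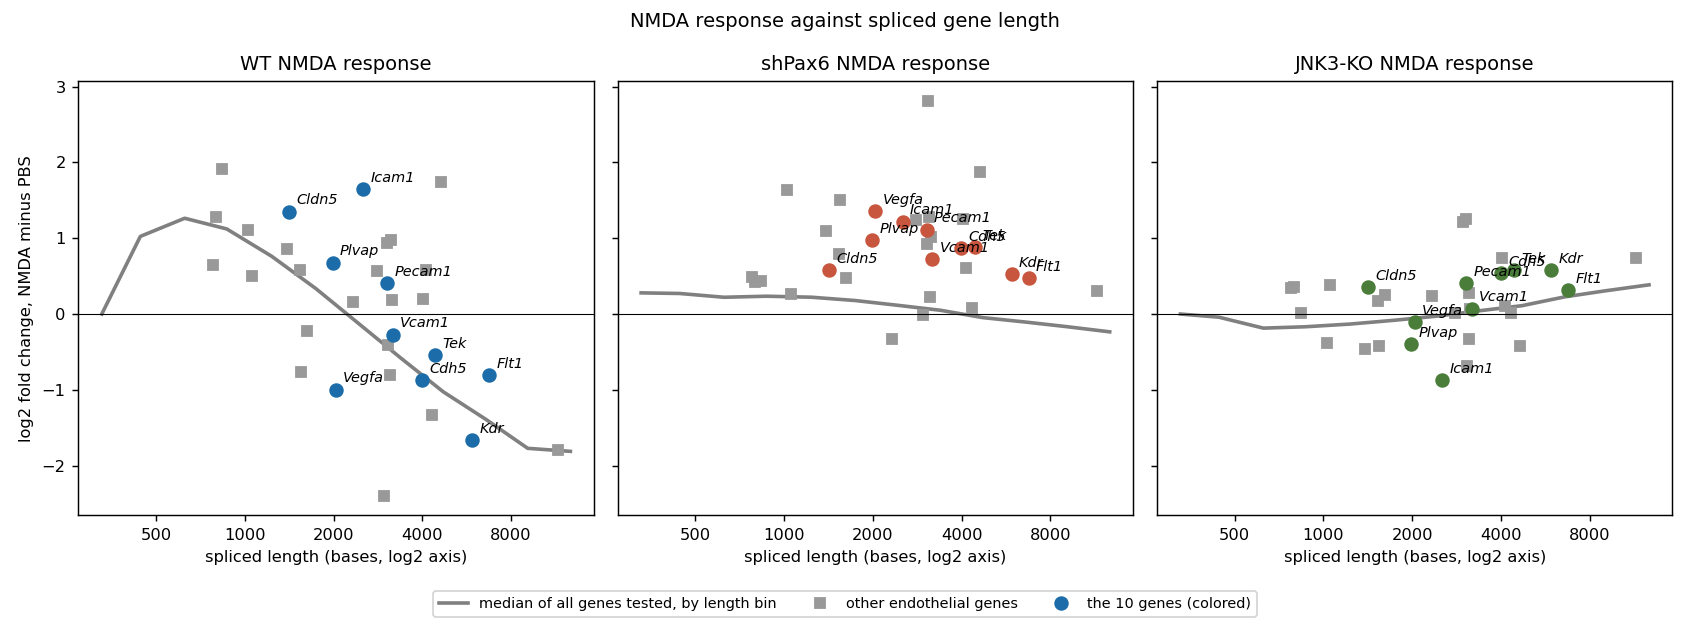
Log2 fold change after NMDA (vertical axis) against spliced length (horizontal axis, log2 scale) of the 10 genes (colored circles) and of 22 other endothelial marker genes (grey squares) in each genotype, with the median of all genes tested per length bin as a grey line. The grey line falls with length in WT retinas, where the median is 0.62 under 2 kb and -1.17 above 4 kb. In WT retinas *Icam1* lies above the line and *Vegfa* below it.

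The other endothelial markers give the context of these genes. Of 26 such markers, 22 were tested, and 6 rose and 3 fell in WT retinas with a median of 0.53, or 5 and 1 with a median of 0.16 once length-corrected and 3 and 3 with a median of -0.01 on TPM. Over all genes tested, 26.0% rose and 33.8% fell in WT, 19.1% and 11.0% in shPax6, and 4.33% and 6.10% in JNK3-KO retinas. Once length-corrected, 3920 of 16452 genes rose and 3638 fell in WT retinas, and on TPM 2247 and 8270 of 16471. These shares belong beside the counts of every gene list below. The numbers of endothelial markers that rose on the deposited scale were near them. In WT retinas *Egfl7*, a secreted endothelial factor, was listed at 9.47 and 8.67 FPKM under PBS and 38.93 and 30.55 FPKM after NMDA (1.92, limma adjusted p = 7.63e-05, and 0.82 once length-corrected), while *Calcrl*, the adrenomedullin receptor, fell from 1.93 and 2.03 FPKM to 0.24 and 0.36 FPKM (-2.39, limma adjusted p = 0.000428). In shPax6 retinas 5 of 22 rose and 0 fell, with a median of 0.70, among them *Vwf*, the von Willebrand factor, from 2.5 and 1.2 FPKM to 4.89 and 8.99 FPKM, and *Ecscr*, an endothelial surface protein, from 1.16 and 1.35 FPKM to 4.56 and 3.71 FPKM. *Fli1* and *Tie1*, also among the 5, passed the filter only through the shPax6 NMDA group, so their rises are tied to the filter. In JNK3-KO retinas 1 of 22 rose, *S1pr1*, a receptor for sphingosine 1-phosphate that glia also express, from 9.82 and 9.63 FPKM to 23.06 and 23.62 FPKM (1.25, limma adjusted p = 0.000116), with a median of 0.14. The summed FPKM of the 26 markers were 72.5 to 76.8 in WT PBS, 130.5 to 143.7 in WT NMDA, 49.3 to 59.3 in shPax6 PBS, 93.2 to 97.7 in shPax6 NMDA, 75.6 to 76.2 in JNK3-KO PBS and 96.3 to 100.6 in JNK3-KO NMDA libraries. These sums, like those of lists below, are on the deposited scale. On it all genes summed to 805627 and 820180 FPKM in WT NMDA, against 541210 and 550912 FPKM in WT PBS libraries. *Egfl7* alone was 38.93 and 30.55 FPKM of the WT NMDA sums. The part of endothelial cell number in the results above was not tested.

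Of 21 barrier genes 19 were tested, and 1 rose and 8 fell in WT retinas (4 and 4 once length-corrected, 0 and 15 on TPM), 5 rose and 1 fell in shPax6 retinas, and 0 rose and 1 fell in JNK3-KO retinas. *Tjp1*, the long scaffold gene of tight junctions, fell in WT retinas from 40.31 and 35.97 FPKM to 9.63 and 8.07 FPKM (-2.10, limma adjusted p = 3.43e-07), in contrast to *Cldn5*, a short gene. Once length-corrected the contrast was smaller, with *Tjp1* at -1.08 and *Cldn5* at 0.77, the latter not called. In shPax6 retinas *Slc2a1*, the glucose transporter of barrier endothelium that photoreceptors and glia also use, rose from 80.7 and 74.3 FPKM to 155.27 and 145.6 FPKM (0.96, limma adjusted p = 8.77e-06). Among 8 genes of tip cells and angiogenic signals, 6 were tested, and *Esm1*, a tip cell gene, rose in WT and in shPax6 retinas from at most 0.16 FPKM to 2.14 and 0.79 FPKM and to 0.67 and 1.83 FPKM. *Esm1* passed the filter only through these 2 NMDA groups, as did *Apln*, named below, so the rise of each is tied to the filter. In WT retinas 1 of the 6 rose and 0 fell, or 2 and 0 once length-corrected and 1 and 2 on TPM. The others called on the deposited scale were *Apln* and *Cxcr4*, which rose in shPax6 retinas, and *Pgf* and *Cxcr4*, which fell in JNK3-KO retinas. *Pgf*, a ligand of VEGFR1, fell from 6.76 and 7.35 FPKM to 1.22 and 1.22 FPKM there (-2.44, limma adjusted p = 0.00273).

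Of 18 genes of VEGF and angiopoietin signaling, 4 of which are also in other lists, 15 were tested. In WT retinas 2 rose and 6 fell (2 and 3 once length-corrected, 1 and 8 on TPM), in shPax6 retinas 3 rose and 0 fell, and in JNK3-KO retinas 0 rose and 1, *Pgf*, fell. The calls of *Ptprb* in WT, *Tie1* in shPax6 and *Pgf* in JNK3-KO retinas were also counted in lists above. The rise of *Tie1* is tied to the filter. *Nrp1*, a co-receptor of VEGFR2, fell in WT retinas from 3.6 and 3.77 FPKM to 0.47 and 1.28 FPKM (-2.09, limma adjusted p = 0.00142), and *Plxnd1*, a semaphorin receptor of endothelium, rose in shPax6 retinas from 2.45 and 4.33 FPKM to 11.65 and 16.81 FPKM (2.07, limma adjusted p = 0.000941). Of 18 hypoxia targets, the class to which *Vegfa* belongs, 17 were tested. In shPax6 retinas 10 rose and 1 fell with a median of 0.58, led by *Egln3*, an oxygen sensor, from 1.52 and 0.98 FPKM to 15.06 and 13.58 FPKM (3.44, limma adjusted p = 5.15e-05), and *Adm*, which encodes adrenomedullin, from 0.88 and 0.38 FPKM to 4.95 and 6.91 FPKM, the 1 group through which *Adm* passed the filter. In WT retinas 4 rose and 7 fell (6 and 4 once length-corrected, 3 and 12 on TPM), and in JNK3-KO retinas 0 rose and 3 fell.

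**Figure D5:**
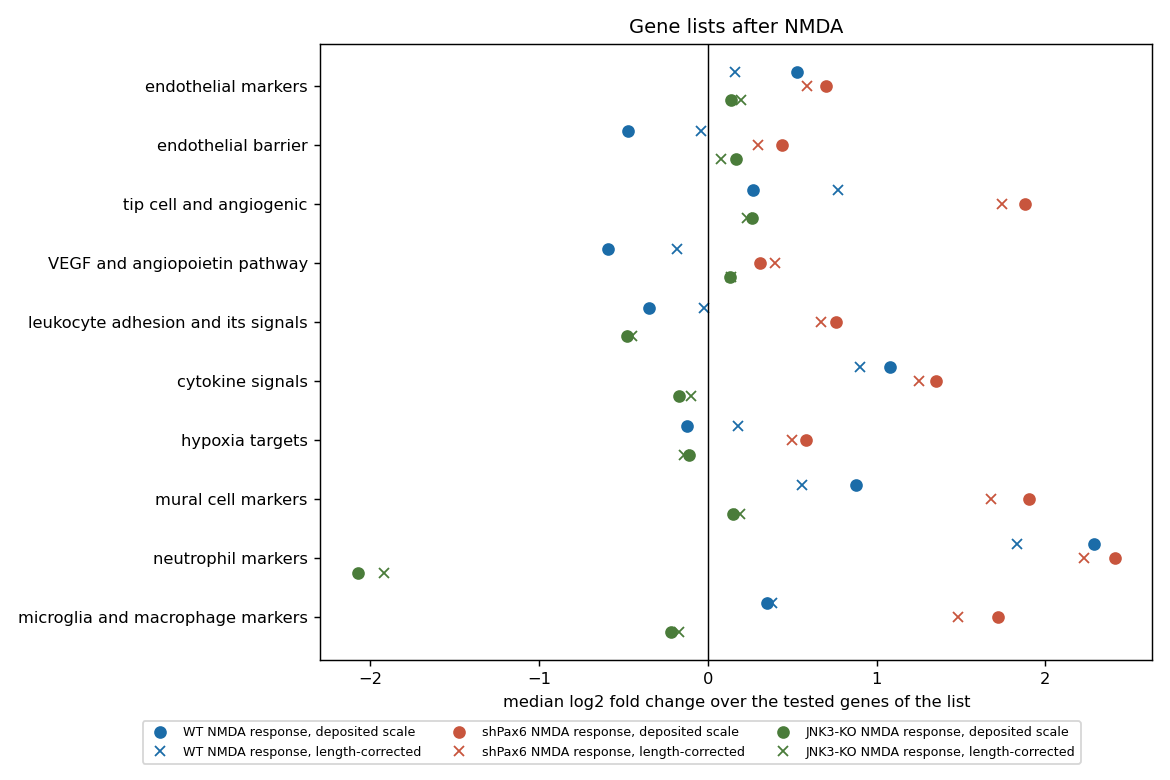
Median log2 fold change after NMDA (horizontal axis) over the tested genes of 10 gene lists (vertical axis) in WT, shPax6 and JNK3-KO retinas, on the deposited scale (circles) and after the length correction (crosses). The neutrophil list lies at 2.29 and 2.41 in WT and shPax6 retinas and at -2.07 in JNK3-KO retinas.

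Other genes of leukocyte adhesion and cytokine signaling are set beside *Icam1* here. Of 21 selectins, integrins and chemokines 20 were tested, and 4 rose and 5 fell in WT (3 and 3 once length-corrected, 2 and 10 on TPM), 9 rose and 0 fell in shPax6, and 0 rose and 5 fell in JNK3-KO retinas. *Ccl2*, a monocyte chemoattractant, rose in WT retinas from 4.61 and 4.39 FPKM to 138.26 and 126.01 FPKM (4.84, limma adjusted p = 1.48e-06) and in shPax6 retinas from 0.91 and 2.2 FPKM to 31.4 and 37.63 FPKM. *Selplg*, the P-selectin ligand of leukocytes, fell in JNK3-KO retinas from 9.97 and 10.56 FPKM to 1.56 and 1.36 FPKM (-2.73, limma adjusted p = 2.1e-05). Of 16 cytokine signal genes 14 were tested, and 9 rose and 3 fell in WT (8 and 0 once length-corrected, 6 and 4 on TPM), 9 rose and 1 fell in shPax6, and 0 rose and 4 fell in JNK3-KO retinas. *Il1a* passed the filter only through the WT NMDA group and *Il6* only through the WT NMDA and shPax6 NMDA groups. Their rises in WT retinas are tied to the filter. *Il1b*, an inducer of ICAM-1, rose in WT retinas from 15.94 and 18.58 FPKM to 89.65 and 82.05 FPKM, and fell in JNK3-KO retinas from 14.94 and 12.96 FPKM to 0.86 and 0.67 FPKM (-4.03, limma adjusted p = 0.00023). *Relb*, an NF-κB subunit, rose in WT retinas from 2.56 and 3.1 FPKM to 11.35 and 12.15 FPKM.

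On the deposited scale the neutrophil markers that passed the test moved in the same direction as *Icam1* in each genotype. Of 11 neutrophil markers 10 were tested, and 7 rose and 0 fell in WT (7 and 1 once length-corrected, 5 and 2 on TPM), 7 rose and 0 fell in shPax6, and 0 rose and 6 fell in JNK3-KO retinas. *Ly6g*, *Ngp* and *Mmp8* passed the filter only through the WT NMDA group, so their rises in WT retinas are tied to the filter. The summed FPKM of the neutrophil markers were 1002.7 to 1057.6 in WT PBS and 2889.7 to 2910.1 in WT NMDA, 508.6 to 517.5 and 2078.2 to 2101.6 in shPax6, and 746.8 to 756.6 and 147.1 to 155.3 in JNK3-KO libraries. *Lcn2*, which Müller glia also express, made up most of these sums outside WT NMDA retinas. It was listed at 773.69 and 804.78 FPKM in WT PBS and 933.71 and 873.09 FPKM in WT NMDA libraries. It was listed at 507.04 and 500.26 FPKM in shPax6 PBS, 2030.48 and 1996.51 FPKM in shPax6 NMDA, 585.51 and 562.56 FPKM in JNK3-KO PBS and 129.68 and 136.91 FPKM in JNK3-KO NMDA libraries. The shPax6 sums were thus nearly all *Lcn2*. *S100a9* was listed at 92.86 and 99.58 FPKM in WT PBS, 1145.58 and 1114.59 FPKM in WT NMDA, 2.23 and 1.84 FPKM in shPax6 PBS, 31.32 and 32 FPKM in shPax6 NMDA and 4.34 and 6.61 FPKM in JNK3-KO NMDA libraries. *Ly6g*, which defines mouse neutrophils, was listed at 3.74 and 2.55 FPKM in WT NMDA, at 0.46 and 0.2 FPKM in JNK3-KO PBS and at 0 in JNK3-KO NMDA and in all shPax6 libraries. Hemoglobin and platelet genes summed to 101.9 and 113 FPKM in WT PBS and 649.3 and 672.4 FPKM in WT NMDA, where 7 of 8 tested rose (4 once length-corrected and 4 on TPM). They summed to 31.7 to 53 and 153.7 to 168.6 FPKM in shPax6, where 5 rose, and to 131.2 to 134.1 and 74.8 to 84.1 FPKM in JNK3-KO libraries, where 1 fell. Among those that rose in WT retinas, *Alas2* passed the filter only through the WT NMDA group, so its rise is tied to the filter. The part of blood cells in the results for *Icam1*, *Pecam1* and *Cldn5* was not tested.

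Markers of other cells that express some of the 10 genes moved as well. In shPax6 retinas 7 of 12 tested mural cell markers rose and 1 fell, among them *Acta2*, smooth muscle actin, from 3.33 and 0.69 FPKM to 12 and 10.48 FPKM. In the same retinas 5 of 7 tested fibroblast genes rose, and 8 of 12 microglia and macrophage markers rose, among them *Cd68*, from 4.44 and 5.99 FPKM to 68.86 and 73.2 FPKM. The mural marker *Des*, the fibroblast genes *Col1a1* and *Col3a1* and the macrophage marker *Mrc1* passed the filter only through the shPax6 NMDA group. The mural marker *Higd1b* passed it only through the 3 NMDA groups. Their rises in these counts are tied to the filter. In WT retinas 3 mural markers rose and 1 fell (3 and 0 once length-corrected, 3 and 2 on TPM), 1 fibroblast gene rose and 1 fell (2 and 0, 1 and 4), and 6 microglia and macrophage markers rose and 4 fell (4 and 2, 6 and 5). JNK3-KO retinas had 0 and 2, 0 and 1, and 2 and 3. Of 11 tested genes of Müller glia and astrocytes, sources of VEGF-A, 3 rose and 6 fell in WT (3 and 5 once length-corrected, 2 and 6 on TPM), 6 rose and 2 fell in shPax6, and 4 rose and 2 fell in JNK3-KO retinas. Of 9 tested markers of pigment epithelium and choroid, whose capillaries are fenestrated and hold PLVAP, 2 rose and 2 fell in WT (0 and 3 both once length-corrected and on TPM), 1 rose and 6 fell in shPax6, and 0 rose and 0 fell in JNK3-KO retinas by limma, with 0 at an unadjusted p under 0.05 and a median of 0.16. *Rpe65*, a defining gene of pigment epithelium, was listed at 3.11 and 3.19 FPKM in shPax6 PBS and at 0.11 and 0.35 FPKM in shPax6 NMDA libraries, in which *Plvap* was highest. *Sag*, which encodes the arrestin of photoreceptors and marks the tissue as retina, was listed between 2456.69 and 5327.63 FPKM in the 12 libraries. The 11 ganglion cell genes had 1 up and 9 down in WT (0 and 9 once length-corrected, 0 and 10 on TPM), 0 and 7 in shPax6, and 0 and 7 in JNK3-KO retinas.

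Among all genes tested, those most like *Cldn5* over the 12 libraries were *5430416N02Rik*, *Mrpl16* and *Cutc*, with Pearson's r of 0.961, 0.954 and 0.939 on log2(FPKM + 0.1), and those most like *Icam1* were *Tpi1*, *S100a4* and *Grhpr*, with 0.981, 0.975 and 0.974. The 12 libraries are 6 groups of 2, so these values describe the pattern over groups.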

How the data were processed

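Poly(A) RNA of pooled mouse retinas was sequenced as paired ends by the study. The authors aligned the reads with STAR 2.7.1a to GRCm38.p6, estimated abundance with RSEM 1.3.3 and deposited FPKM tables of genes and of transcripts for the 12 libraries, and used edgeR 3.36.0 in R 4.1.0 for their own tests. Depth behind a value is unknown, and replicate libraries differed by 0.11 to 0.25 on the log2 scale (median over genes, by group). From the deposited FPKM, values on log2(FPKM + 0.1) were fitted with limma 3.58.1 in R 4.3.3, with eBayes allowing the variance to follow intensity, as 6 group means with 6 residual degrees of freedom, over 16471 genes with a group mean above 1 FPKM, and p-values were adjusted over all of them by Benjamini-Hochberg. In all, 7 comparisons were made, and their code was tested on simulated data. GENCODE M21 supplied positions and lengths through Ensembl IDs (99.53% of genes matched). The 10 genes, the 16 gene lists and their markers were chosen with earlier results of these data known. The counts of 1 list, of photoreceptor genes, are not reported here. All 10 genes are named, and from the lists only genes that were among the 4 largest called changes in a response, except where a marker is given as a check. *Lcn2*, *Gtpbp3* and *Alas2* were named after their values were seen. Other settings tried were dropping the filter or placing it on the overall mean, pseudocounts of 0.5 and 1, TPM, scaling by quantiles or by the 75th percentile, a lowess length correction (span 0.3), the spread of the compared groups alone, no trend, a replicate block, the study's thresholds for its volcano plots (unadjusted p under 0.05, absolute log2 fold change above 1) and each library left out. Leaving out both WT NMDA libraries was added after seeing the data. Figures were drawn with matplotlib 3.10.9.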

Additional observations from a re-analysis of the deposited data

Results flagged for a closer look

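Each result here was listed because the response to NMDA differed between 2 genotypes by a test of the difference itself with limma over all genes tested, on the log2 scale, with 2 libraries in each of the 4 groups. The shPax6 response was above that of WT retinas by 2.36 for *Vegfa*, 2.19 for *Kdr*, 1.74 for *Cdh5*, 1.28 for *Flt1* and 1.00 for *Vcam1*. Once length-corrected these were 2.29, 1.03, 0.91, 0.02 and 0.41, of which only those of *Vegfa* and *Kdr* passed the test. The call of *Cdh5* is tied to the filter, as given above. The JNK3-KO response was above that of WT retinas by 2.25 for *Kdr*, 1.12 for *Flt1* and 0.89 for *Vegfa*, and its difference was -1.07 for *Plvap* and -2.52 for *Icam1*. Once length-corrected these were 0.83, -0.46, 1.04, -0.88 and -2.70, and that of *Flt1* no longer passed. All of these share the WT NMDA libraries, whose changes followed gene length, and the part of that trend was measured with the length correction only. No group had enough libraries for a test of single outlying libraries.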

How the results depend on the processing

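Over 23 alternatives, the WT calls of *Kdr*, *Vegfa* and *Icam1*, the shPax6 call of *Vegfa*, the JNK3-KO call of *Kdr*, the shPax6 minus WT differences of *Vegfa* and *Kdr* and the JNK3-KO minus WT differences of *Kdr*, *Vegfa* and *Icam1* held in 23. These 23 keep the adjusted threshold and leave out the study's thresholds. Those are the limits of its volcano plots, an unadjusted p under 0.05 with an absolute log2 fold change above 1. The study's rule for all genotypes, p under 0.05 with no fold limit stated, keeps every call made here at the adjusted threshold by limma. With the length correction *Flt1* turned from -0.80 to 0.55 in WT retinas and from 1.12 to -0.46 in the difference of JNK3-KO from WT responses. Of the 10 genes, the number called in WT retinas went from 6 to 3 with the study's thresholds (*Cldn5*, *Kdr* and *Icam1*), and in shPax6 retinas from 7 to 3 with those thresholds (*Pecam1*, *Vegfa* and *Icam1*) and to 1 with the spread of the compared groups alone. In JNK3-KO retinas it went from 2 to 1 with no filter, quantile scaling or the spread alone and to 0 with the study's thresholds, and ranged from 1 to 2 with 1 library left out. Between shPax6 and WT under PBS it went from 2 to 1 with no filter, quantile scaling or the replicate block, and to 0 with the length correction or the spread alone, and ranged from 0 to 3 with 1 library left out, while the study's thresholds called neither of the 2 genes and 1 other, *Cdh5*. For the shPax6 minus WT difference it went from 5 to 8 on TPM, 2 with the length correction and 3 with the spread alone, and ranged from 3 to 5 with 1 library left out. On TPM 7771 of all 16471 genes tested were higher and 1516 lower in that difference. Where a library was left out, the lone library of its group was assumed to vary like the other groups. Causes of these changes were not tested. Same-numbered libraries did not deviate together, with correlations of -0.097 to 0.044. These values cannot show whether such libraries share animals or batches, which the labels do not say. With the replicate block 6, 7, 2, 1, 0, 5 and 5 genes were called in the 7 comparisons, in the order WT, shPax6 and JNK3-KO responses, shPax6 and JNK3-KO against WT under PBS, and shPax6 and JNK3-KO minus WT, and *Pecam1* under PBS was lost, at a limma adjusted p of 0.051. Without both WT NMDA libraries, an alternative chosen after seeing the data, 6, 2, 3 and 0 genes were called in the shPax6 and JNK3-KO responses and the shPax6 and JNK3-KO comparisons under PBS.

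Over all genes, scaling moved the balance of higher and lower calls. In WT retinas 4286 genes were higher and 5569 lower, against 2247 and 8270 on TPM and 3920 and 3638 with the length correction. In shPax6 retinas the counts were 3151 and 1816, against 2259 and 2500 with the length correction, 2371 and 2507 with 75th-percentile scaling and 2158 and 2742 with quantile scaling. The shPax6 minus WT counts were 5172 and 3007, against 7771 and 1516 on TPM and 2766 and 3187 with the length correction, and the JNK3-KO minus WT counts were 4597 and 3875, against 6973 and 2105 on TPM and 2594 and 3025 with the length correction. Depth behind the FPKM is unknown, so precision for low genes such as *Tek* and *Cdh5* rests on 2 libraries a group.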
